A study of Homo sapiens with 6 samples.

Results

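S1b is a population of seeder cells isolated from the human breast cancer line MDA-MB-231, and its expression profile was compared with that of the parental line. The comparison used the 2 arrays titled S1b and the 2 arrays titled parental, 4 of the 6 arrays in the series, and no measured value was used to choose them. The other 2 arrays hold S1a, a separately isolated seeder population, which is used here to show what S1b gained or lost beyond S1a. Total RNA was hybridised to Affymetrix arrays, and the values are linear signal intensities, 1 for each probe set and array. All 3 populations are MDA-MB-231 cells that were kept subconfluent in DMEM with 10% FBS, with no treatment named. S1b is 1 isolate, so a trait of seeder cells in general cannot be told apart from a trait of this isolate or an effect of its isolation. The titles name the replicates biological but do not say that separate cultures were used, so p-values here reflect only how far the arrays of a population differ, which may be technical.

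MDA-MB-231 is a triple-negative line with a mesenchymal phenotype that is widely used as a model of metastasis. Seeder cells are tumour cells that leave a tumour, travel in the blood and settle again in a tumour that is already established. To do so a cell has to pass a vessel wall, and secreted proteases, cytokines that attract circulating cells, and proteins that bundle actin at the leading edge are the classes of gene most often examined for this step. The published study of these isolates examined MMP1, FSCN1, CXCL1, IL6 and CXCL8, so these genes are always described here, and their values are not independent evidence because they may have been picked from the same arrays.

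The labelled cell type was checked against genes that MDA-MB-231 is known to express or lack. VIM, which encodes the intermediate filament protein vimentin, read 21208 and 27237 signal units in the parental arrays and 21386 and 19849.5 in S1b, and its change did not pass the test (log2 change -0.22 ± 0.12, SE, adjusted p = 0.179). Of the 5 genes expected to be high, only CAV1, the caveolin of membrane invaginations, passed it, with a log2 change of -0.34 ± 0.088 (adjusted p = 0.0119), a call that ended without S1b replicate 1 or without a variance trend. Of the 5 genes expected to be low, 3, among them CDH1 (E-cadherin) and PGR, lay below the filter of 44 units described next, and ESR1 and ERBB3 did not pass the test. Arrays of 1 population correlated at 0.985 in S1b and 0.978 in the parental line over log2 signals, S1b and parental arrays at 0.920 to 0.923, and S1b and S1a arrays at 0.979 to 0.981. The median signal was 88.9 and 89.6 units in S1b, 106 and 98.6 in the parental line, and 87.6 and 91.7 in S1a. The log2 signal of the poly-A RNA spikes, added during labelling, averaged 7.58 and 8.35 in the parental arrays and 8.31 and 8.24 in S1b, so parental replicate 1 stood apart in that measure. The part of these array differences in the results was examined only through refits with other scalings, array weights or an array left out.

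A gene was represented by its probe set with the highest mean signal, and 7791 genes with a mean of at least 44 units, the 40th percentile, were tested with limma. In S1b, 1616 genes were higher than in the parental line (20.7% of the genes tested) and 1628 were lower (20.9%) at an adjusted p below 0.05, so 41.6% of the genes passed in 1 direction or the other. With each array centred on its median the counts were 1935 higher and 1357 lower, so the near-even split moved with the scaling. Most changes were modest: the median size among the genes that passed was 0.64 on the log2 scale, 251 rises and 506 falls reached 2-fold, and 40 rises and 94 falls reached 4-fold. At 4-fold and above, losses outnumbered gains. The arrays of S1b and the parental line did not overlap for 5428 genes (69.7%), among them all 3244 that passed. The count of higher genes went from 1616 to 1051 without S1b replicate 1. In a bulk sample a change in every cell and a change in the share of cells that express a gene cannot be told apart.

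**Figure D1:**
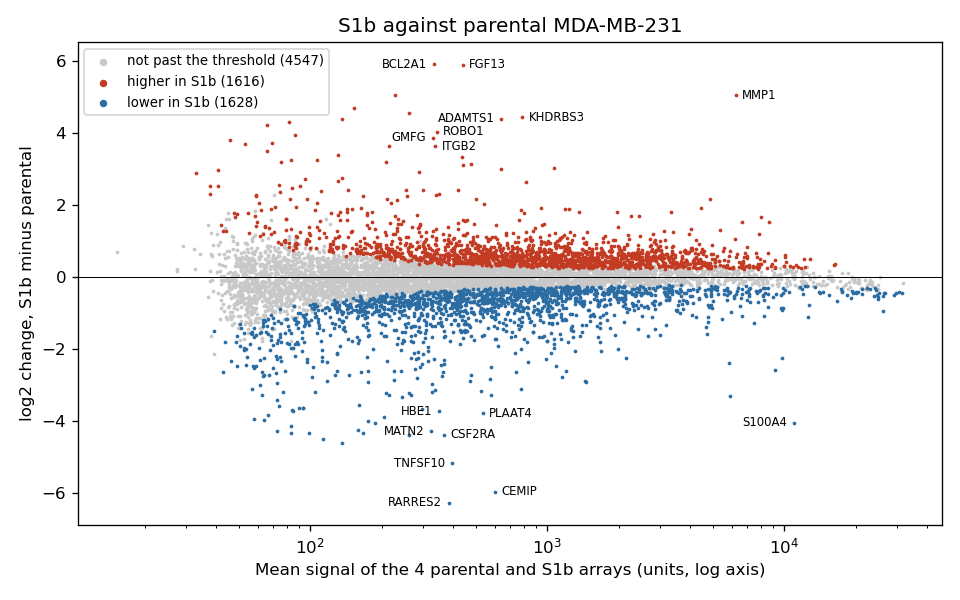
Each point is 1 of the 7791 genes tested, with the mean signal of the 4 parental and S1b arrays on a log axis and the log2 change of S1b minus parental on the vertical axis. Red points (1616) were higher and blue points (1628) lower in S1b at an adjusted p below 0.05, and the labelled genes are among the largest changes, with MMP1 at a log2 change of 5.05 and S100A4 at -4.06.

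Folds below are ratios of mean signals. Where the dimmer mean lay under 44 units, 44 was used in its place and the fold is a lower bound, because a fitted log2 change then depends on the pseudocount. Changes on the log2 scale carry the standard error (SE) from the fit, with n = 2 arrays in each population, and adjusted p-values are limma's with Benjamini-Hochberg adjustment over all genes tested.

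MMP1, the interstitial collagenase, had the largest rise once signals under 44 units were set to 44. Without that floor the fitted log2 change was larger for BCL2A1 (5.91) and FGF13 (5.89), whose parental signals lay under it. MMP1 read 388 and 339 units in the parental arrays, 6667 and 6534 in S1a and 12016 and 12232 in S1b. Every S1b array lay above every array of the other populations, and S1a lay between. The rise over the parental line was 33.4-fold (log2 change 5.05 ± 0.089, adjusted p = 5.3e-10). ADAMTS1, a secreted metalloprotease that cleaves proteoglycans, read 49.6 and 59.7 units in the parental arrays and 1206 and 1243 in S1b, a rise of 22.4-fold (adjusted p = 1.89e-08). KISS1, whose peptide products activate a G-protein-coupled receptor and which is known as a suppressor of metastasis, read 77.9 and 73.1 units in the parental arrays and 826 and 773 in S1b, a rise of 10.6-fold (adjusted p = 3.62e-07). In S1a both genes were high as well, at 1714 and 1695 units for ADAMTS1 and 851 and 1061 for KISS1.

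Several of the other large rises started from a signal under or near the filter. BCL2A1, an anti-apoptotic member of the BCL2 family, read 3.28 and 12.8 units in the parental arrays and 694 and 623 in S1b, at least 15-fold higher. ROBO1, a receptor for SLIT guidance proteins, went from 41.1 and 30.4 units to 573 and 721, at least 14.7-fold. GMFG, which acts on branched actin and is best known from blood cells, went from 35.9 and 41.9 units to 683 and 559.8, at least 14.1-fold. All passed the test, with adjusted p-values of 1.41e-06, 4.56e-07 and 3.88e-07, in that order, and none of their parental arrays came near an S1b array. KHDRBS3, an RNA-binding splicing regulator, rose 21.6-fold, from 44.6 and 93.7 to 1362 and 1624 units. PLCB1, a phospholipase that G proteins activate, rose at least 10.1-fold and PTPRN2, a protein of dense-core vesicles, at least 9.15-fold, with adjusted p-values of 2.65e-05 and 4.5e-06.

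ITGB2, the integrin chain shared by leukocyte integrins, read 52.7 and 41.8 units in the parental arrays and 656 and 602 in S1b, a rise of 13.3-fold (adjusted p = 4.31e-07). Because ITGB2, GMFG and LAPTM5 (log2 change 0.97 ± 0.091, adjusted p = 2.97e-05) are leukocyte genes, other leukocyte markers were read beside them. Of the 15 leukocyte markers with a named probe set, 10 lay below the filter, among them PTPRC (CD45) at 34.0 and 26.2 units in the parental arrays and 28.7 and 13.8 in S1b and CD3D at 7.88 and 8.17 in S1b. Of the 5 tested, ITGB2 and LAPTM5 rose and CD14, a monocyte receptor, was lower (log2 change -1.57 ± 0.42, adjusted p = 0.0144, a call that ended without parental replicate 2 or either S1b array). The summed signal of the whole list was 1564 and 1747 units in the parental arrays and 3261 and 3057 in S1b, and LAPTM5 and ITGB2 made up most of it.

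S100A4, a calcium-binding protein long linked to metastasis, had the highest signal among the large losses. It read 21248 and 20123 units in the parental arrays, 2553 and 2509.9 in S1a and 1289 and 1188 in S1b, with no overlap between populations, and fell 16.7-fold against the parental line (log2 change -4.06 ± 0.083, adjusted p = 1.23e-09). CEMIP, a protein needed for the breakdown of hyaluronan, read 1260.3 and 1120.1 units in the parental arrays and 17.7 and 12.8 in S1b, at least 27.1-fold lower (adjusted p = 3.72e-07). TNFSF10, the death ligand TRAIL, went from 871 and 674 units to 11.6 and 24.9, at least 17.6-fold lower. Both S1b arrays of CEMIP and of TNFSF10 lay under the filter.

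RARRES2, which encodes the chemoattractant chemerin and responds to retinoids, read 841 and 687 units in the parental arrays and 7.03 and 4.94 in S1b, at least 17.4-fold lower (adjusted p = 1.14e-05). PLAAT4, another gene known to respond to retinoids and interferon, fell 14.8-fold, from 1186 and 814 to 73.2 and 61.8 units. CSF2RA, a chain of the GM-CSF receptor, fell at least 16-fold (adjusted p = 1.79e-05). The matrix protein gene MATN2 fell at least 14-fold and FLG, which encodes the skin protein filaggrin, at least 11.5-fold, with adjusted p-values of 0.000108 and 6.31e-06. All of these were also far below the parental line in S1a, where RARRES2 read 6.45 and 3.19 units and FLG 25.4 and 33.8.

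HBE1, an embryonic globin gene, also met the rule for the largest falls, but 1 array decided it. Its parental arrays read 1350.5 and 23.7 units and its S1b arrays 11 and 10.3. Parental replicate 2 thus lay close to S1b while parental replicate 1 did not. The fall of at least 15.6-fold (adjusted p = 0.0464) lost its call in 9 of the 19 alternatives, among them the one without parental replicate 1, and the adjusted p ranged from 6.54e-06 to 0.429 over the alternatives.

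**Figure D2:**
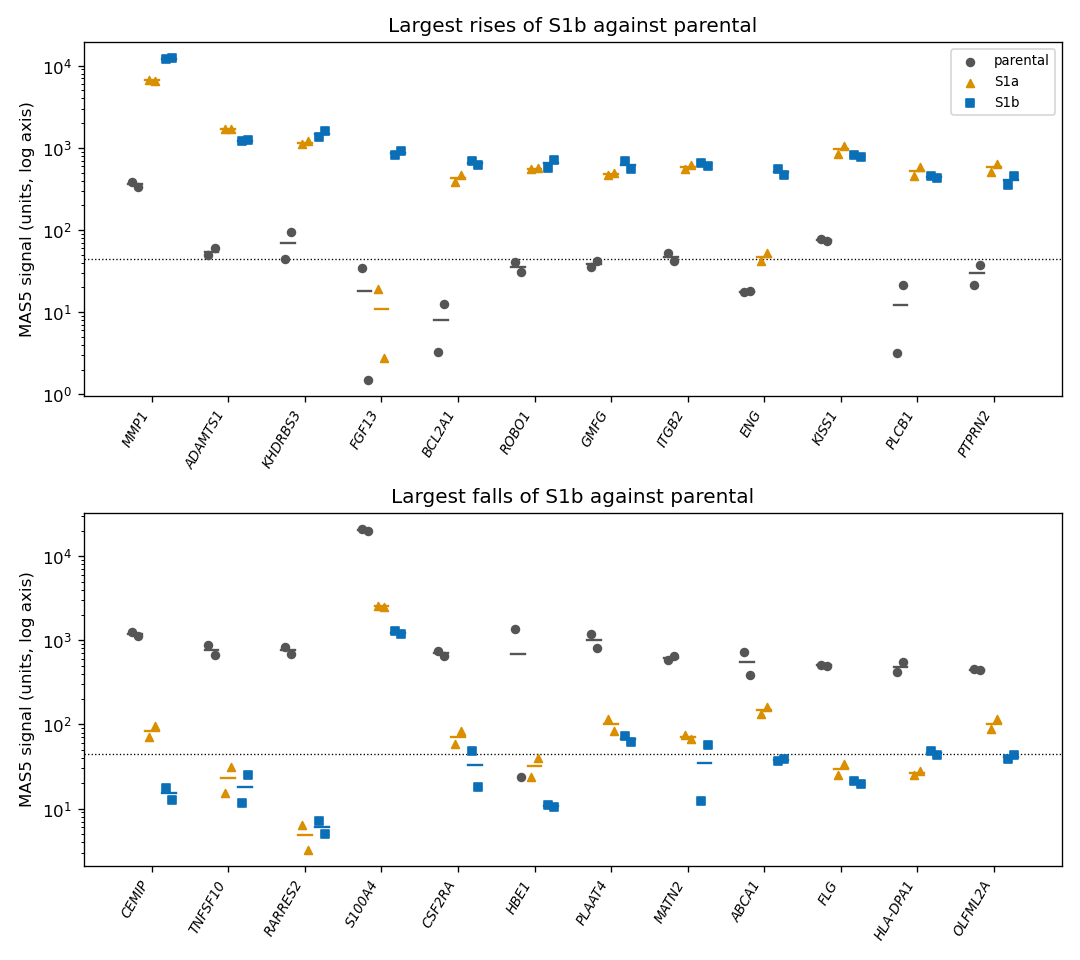
Signals of every array on a log axis for the 12 largest rises (top) and the 12 largest falls (bottom) of S1b against the parental line, with circles for parental, triangles for S1a, squares for S1b, horizontal bars for the mean of 2 arrays and a dotted line at 44 units. For FGF13 S1a stayed near the parental line and for ENG it lay between it and S1b, and the parental circles of HBE1 stand far apart.

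To ask what S1b gained or lost by itself, its arrays were also tested against S1a. The isolates differed at 147 genes, of which 36 were higher (0.462% of the genes tested) and 111 lower (1.42%) in S1b. A gene was counted as apart in S1b where it passed against the parental line and against S1a in the same direction, which held for 27 higher genes (0.347%) and 66 lower genes (0.847%). Only 5 of the higher and 11 of the lower ones differed at least 2-fold from both populations. Both contrasts use the S1b arrays and all contrasts share 1 estimate of the spread, so these counts are a description. They also moved with single arrays. The 27 became 7 without either S1a array, 5 without S1b replicate 1, 3 without S1b replicate 2, and 78 and 71 without parental replicates 1 and 2. The 66 became 17 and 19 without S1a replicates 1 and 2, 29 and 16 without S1b replicates 1 and 2, and 131 and 123 without parental replicates 1 and 2. With the variance not allowed to follow the mean signal, 2 higher and 2 lower genes were left.

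FGF13, an intracellular member of the FGF family that binds sodium channels and microtubules, gave the largest gain of S1b over S1a. Its gene is on chromosome X. It read 35.0 and 1.49 units in the parental arrays, 19.2 and 2.79 in S1a and 814 and 909.8 in S1b. Only S1b lay above the filter, and the rise over the parental line was at least 19.6-fold (adjusted p = 0.000416). Against S1a the fitted log2 change was 6.11 (adjusted p = 0.00694), a call that ended without either S1b array and without a variance trend, with adjusted p-values of up to 0.164.

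ENG encodes endoglin, a co-receptor for TGF-beta and BMP ligands that is best known from endothelium, and lies on chromosome 9. Its signals were 17.5 and 18.1 units in the parental arrays, 41.8 and 52.6 in S1a and 551 and 462 in S1b. S1b stood above all other arrays by a wide margin. It was at least 11.5-fold higher than the parental line (log2 change 4.55 ± 0.3, adjusted p = 3.22e-06) and passed against S1a (log2 change 3.32, adjusted p = 0.000692). Other endothelial markers did not show such levels. Of 10 with a named probe set, 7 lay below the filter, including PECAM1 at 22.7 and 40.8 units and VWF at 4.89 and 3.12 in S1b. ROBO4 passed the test against the parental line (log2 change 1.02 ± 0.31, adjusted p = 0.023, a call that ended without parental replicate 2 or S1b replicate 1). KDR read 21.3 and 79.7 units in the parental arrays and 67.7 and 58.0 in S1b (adjusted p = 0.46). The summed endothelial list was 191 and 275.6 units in the parental arrays and 864.4 and 758.5 in S1b, of which ENG made up the larger part in S1b.

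SPARC, a secreted matricellular protein that binds collagen, lies on chromosome 5 and was also highest in S1b. It read 37.1 and 39.6 units in the parental arrays, 35.0 and 39.0 in S1a and 394 and 367 in S1b. Parental and S1a arrays overlapped, and both S1b arrays lay far above them, at least 8.65-fold over the parental line (adjusted p = 2.09e-05) and with a log2 change of 3.23 from S1a (adjusted p = 0.000685). SPARC is also made by fibroblasts, and 9 of 12 fibroblast markers lay below the filter, among them COL3A1 at 24.3 and 6.28 units, DCN at 28.2 and 15.3 and LUM at 0.16 and 0.4 in S1b. The summed fibroblast list was lower in S1b, at 392 and 363.4 units, than in the parental arrays, at 581.7 and 492.5. ACTA2, smooth muscle actin, passed in the upward direction (log2 change 1.13 ± 0.25, adjusted p = 0.00487), a call that ended when probe sets were averaged (adjusted p = 0.0509). COL1A2 fell (log2 change -1.29 ± 0.44, adjusted p = 0.0396, a call that ended in 8 of 16 alternatives). COL1A1 read 148 and 119.5 units in the parental arrays and 95.3 and 96.6 in S1b (adjusted p = 0.158).

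The remaining gains apart in S1b were smaller. LYPD1, a lipid-anchored surface protein of the Ly6 family, rose at least 4.32-fold over the parental line, from 32.0 and 34.0 to 179 and 201 units, with S1a between at 64.5 and 75.7. ST3GAL1, a sialyltransferase of O-linked sugar chains, read 122 and 93.4 units in the parental arrays and 247 and 189 in S1b, a 2.03-fold rise. Against S1a, LYPD1 and ST3GAL1 passed narrowly (adjusted p = 0.0494 and 0.0472), and these calls ended in 11 of 17 and 8 of 16 alternatives. The inositol transporter gene SLC5A3 rose 1.46-fold and the adiponectin receptor gene ADIPOR2 1.6-fold over the parental line, and in S1a both read below the parental mean, at 634 and 562 units for SLC5A3 and 728 and 668 for ADIPOR2. MMP1 belongs here too, since S1b exceeded S1a by 0.88 on the log2 scale (adjusted p = 0.00125). The splicing factor genes SRSF10 and SRSF11 met the rule at 1.45-fold and 1.31-fold over the parental line, but other probe sets of each gave the opposite sign. Calls against the parental line ended when probe sets were averaged for SLC5A3 (adjusted p = 0.177), without S1b replicate 1 for ST3GAL1, without S1b replicate 2 for SRSF10, and without parental replicate 2 or either S1b array for SRSF11.

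CST7, which encodes cystatin F, an inhibitor of cysteine proteases, was the clearest loss of S1b by itself. It read 355 and 417 units in the parental arrays, 194 and 193 in S1a and 26.6 and 18.7 in S1b. The 3 populations did not overlap, S1a lay between, and S1b was at least 8.77-fold below the parental line (adjusted p = 2.31e-06) with a log2 change of -2.91 from S1a (adjusted p = 0.000624). ABCA1, the cholesterol exporter, read 720.4 and 388 units in the parental arrays, 133 and 162 in S1a and 37.0 and 38.4 in S1b, and fell at least 12.6-fold. OLFML2A, a secreted olfactomedin-like protein, fell at least 10.1-fold. CSF1, the macrophage growth factor, fell 7.49-fold, from 901 and 773 to 141 and 82.7 units, again with S1a between at 224 and 297. Against S1a, ABCA1, OLFML2A and CSF1 passed with adjusted p-values of 0.0132, 0.0338 and 0.0362. These calls ended in 5, 7 and 7 of 18 alternatives, in that order.

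Another set of losses had no counterpart in S1a, which read at or above the parental line. TIMP3, an inhibitor of metalloproteases that is held in the matrix, read 1132 and 1014 units in the parental arrays, 1235 and 1227 in S1a and 531 and 461 in S1b, a fall of 2.16-fold against the parental line (adjusted p = 3.73e-05). ITGB4, the hemidesmosome integrin chain, read 361 and 393, 569.6 and 546 and 244 and 204 units in the same order. STOM, the membrane scaffold protein stomatin, read 507 and 530.1, 1119 and 1074 and 370.4 and 435 units. For STOM the isolates moved in opposite directions from the parental line, with log2 changes of -0.37 in S1b (adjusted p = 0.0279) and 1.07 in S1a, although the S1b call ended in 9 of 18 alternatives, among them those without parental replicate 2, S1b replicate 1 or either S1a array. The ITGB4 call against the parental line ended when the probe sets of the gene were averaged.

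SREBF1, a transcription factor for lipid synthesis, fell 1.72-fold against the parental line, the fatty acid desaturase gene SCD5 2.03-fold and the neuropeptide gene NMB 1.92-fold, while S1a read 324 and 314, 192 and 232 and 193 and 186 units for them against parental signals of 225 and 255, 192 and 108 and 127 and 190.2. Each of these calls ended without S1b replicate 2, and those of SCD5 and NMB also without S1b replicate 1. SCD5 further lost its call without parental replicate 1 and NMB without parental replicate 2. Of the 40 genes named here that passed against S1a, the call was kept under every alternative that gave a value for 3, namely ENG, SPARC and CST7. A value came from 16 alternatives for ENG and for SPARC and from 18 for CST7. SPARC lay under 44 units in the parental and S1a arrays, and ENG lay under it in the parental arrays and near it in S1a. Both thus entered the test through their S1b signals, like FGF13. All the other genes of the 40 lost their call without a variance trend. Most of them also lost it when 1 S1a or S1b array was left out. Averaging probe sets ended many of these calls, and leaving out probe sets with shared-probe suffixes ended fewer.

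**Figure D3:**
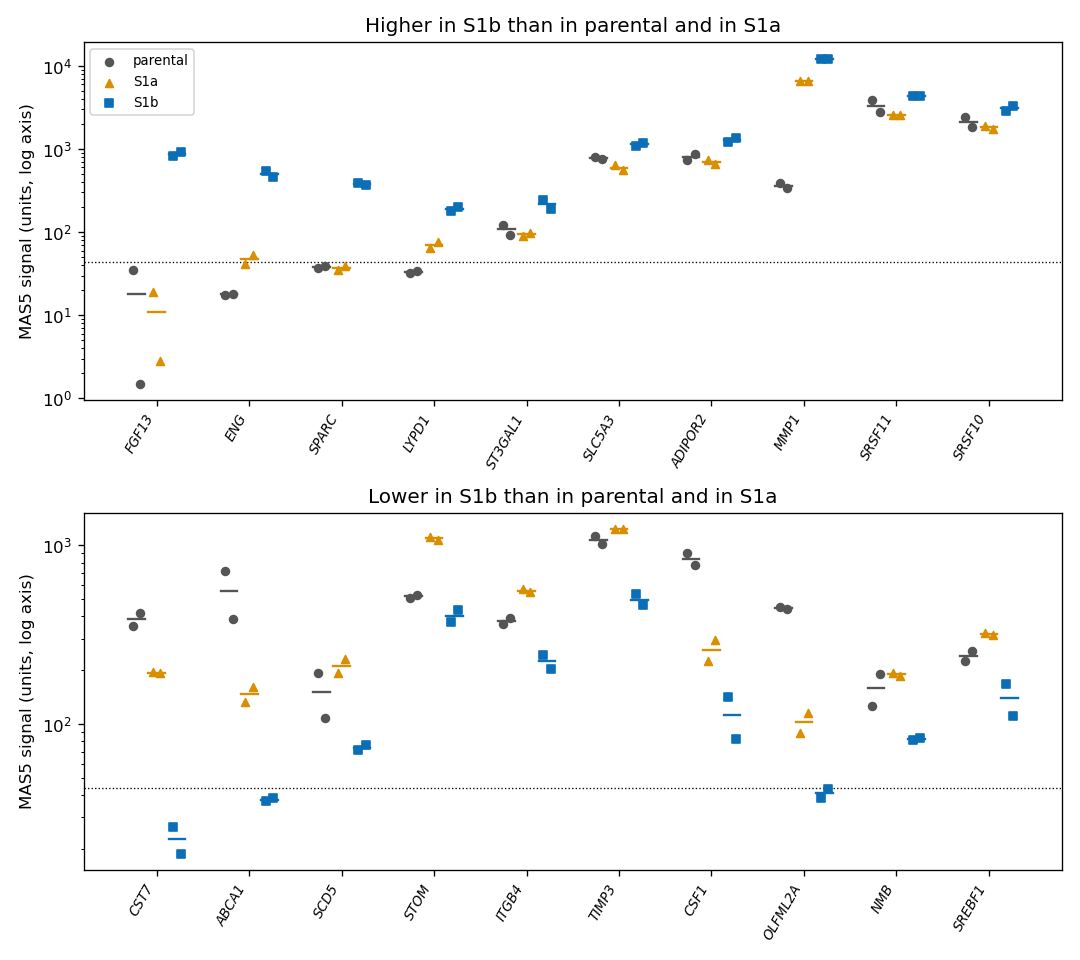
Signals of every array on a log axis for genes higher (top) or lower (bottom) in S1b than in both other populations, with the markers, bars and dotted line of 44 units as in the plot of the largest changes. FGF13, ENG and SPARC are highest in S1b, with ENG in S1a between the other populations, and CST7, TIMP3 and ITGB4 are lowest in S1b.

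Gene lists were then read by role. The counts below are of members that passed against the parental line, and they are set beside 20.7% higher, 20.9% lower and a median log2 change of -0.02 over all genes tested. Values of S1a share the parental arrays with those of S1b and are given only side by side.

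The protease list and the list of protease inhibitors both leaned to lower signals in S1b. Not every member of the protease list is a secreted protease, and it also holds the receptor gene PLAUR. Of its 36 genes, 13 lay below the filter. Of the 23 tested 5 were higher and 11 lower, with a median log2 change of -0.62 (-0.60 in S1a). The rises were led by MMP1 and ADAMTS1. PLAUR, the receptor that holds urokinase at the cell surface, rose 3.24-fold, from 1183 and 1119.6 to 3692 and 3762 units, a call that ended when probe sets with shared-probe suffixes were left out. PLAU, urokinase itself, moved the other way and fell 2.4-fold, from 6416 and 7119 to 2875 and 2757 units (adjusted p = 5.4e-06). Without S1b replicate 2 the count of higher proteases was 3.

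Among 14 inhibitors tested, 2 were higher and 10 lower, with a median log2 change of -0.91, against -0.35 in S1a, and 3 were lower in S1b than in S1a. SERPINE2, an inhibitor of thrombin and plasminogen activators, rose 3.82-fold (adjusted p = 7.16e-07). CST3, cystatin C, read 3489 and 3342 units in the parental arrays, 2583 and 2590.5 in S1a and 1661 and 1581 in S1b. CST6, another cystatin, fell at least 8.97-fold, from 379 and 409.6 to 33.5 and 40.3 units, and TFPI2, a Kunitz-type inhibitor, 3.03-fold. TIMP3, described above, was lower than in S1a as well, like CST3.

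Matrix genes were split. Of 35 collagens and matrix proteins tested, 9 were higher and 10 lower, with a median log2 change of 0.06. SRGN, a proteoglycan of secretory granules, rose 2.89-fold, from 4520.1 and 4325 to 12748 and 12832 units. CCN2, a matricellular growth factor, rose 3.16-fold and the membrane collagen COL13A1 2.29-fold, with adjusted p-values of 8.28e-07 and 3.5e-06. EFEMP1, a fibulin of elastic fibres, read 2628 and 2483 units in the parental arrays, 589 and 627 in S1a and 359 and 322 in S1b. It fell 7.5-fold (log2 change -2.89 ± 0.1). COL5A1, a chain of fibrillar collagen, fell 5.48-fold (adjusted p = 6.13e-06).

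Enzymes that modify collagen leaned lower, with 3 of 12 higher and 7 lower and a median log2 change of -0.43. The prolyl hydroxylase subunit P4HA2 read 1094 and 1281 units in the parental arrays and 302 and 246 in S1b, a 4.33-fold fall. The collagen chaperone SERPINH1 fell 3.17-fold and the crosslinking enzyme LOX 2.08-fold. PLOD2, the lysyl hydroxylase of collagen telopeptides, rose 2.17-fold, from 676 and 787 to 1557 and 1622 units. In hyaluronan turnover the synthase and the degrading protein moved in opposite directions: HAS2, which makes hyaluronan, read 102 and 81.3 units in the parental arrays and 475 and 539 in S1b, a rise of 5.53-fold (adjusted p = 3.31e-06), beside the loss of CEMIP.

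The scaffold list that holds CEMIP had 2 of 11 members higher and 6 lower. CAV2, a caveolin, fell 2.24-fold and CAVIN1, a coat protein of caveolae, rose 1.99-fold, with adjusted p-values of 3.31e-06 and 1.26e-05. The lower count was 3 without S1b replicate 1.

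Few chemokine genes were above the filter: 10 of 14 lay below it. CXCL1, a ligand of the neutrophil receptor CXCR2, read 105 and 85.2 units in the parental arrays, 617 and 673 in S1a and 857 and 866 in S1b. It rose 9.07-fold in S1b (log2 change 3.14 ± 0.14, adjusted p = 3.88e-07). CXCL8, also called interleukin 8 and a ligand of the same receptor, read 527 and 501 units in the parental arrays, 1989 and 1918 in S1a and 1335 and 1507 in S1b. S1b exceeded the parental line 2.77-fold (adjusted p = 3.22e-06) but lay under S1a by 0.46 on the log2 scale (adjusted p = 0.0472), a difference that did not pass when any 1 array of the isolates was left out. CXCL3 read 57.4 and 45.6 units in the parental arrays and 107 and 92.5 in S1b (log2 change 0.91 ± 0.3, adjusted p = 0.0347), and its call ended in 9 of 18 alternatives, including those without parental replicate 2 and without any 1 array of the isolates. CXCL2 did not pass the test, with 199 and 71.0 units in the parental arrays and 128 and 179 in S1b (adjusted p = 0.527).

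IL6, a cytokine that NF-kappa B induces together with these chemokines in many cells, went the other way. It read 565 and 677 units in the parental arrays, 174 and 151 in S1a and 55.0 and 138 in S1b, a 6.43-fold fall (log2 change -2.77 ± 0.34, adjusted p = 0.000153). The S1b arrays differed from each other for IL6, yet both lay under every other array. Among 14 cytokines tested 3 were higher and 7 lower, with a median log2 change of -0.96. IL1B, interleukin 1 beta, read 101 and 83.3 units in the parental arrays, 618 and 628 in S1a and 297 and 246 in S1b, so S1b lay above the parental line (log2 change 1.52 ± 0.17) and under S1a (log2 change -1.19, adjusted p = 0.00862). The difference from S1a did not pass without either S1a array or S1b replicate 2. IL7, a growth factor of lymphocytes, rose at least 3.83-fold.

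Because CXCL1, CXCL3 and IL6 moved in different directions, their promoters are shown. The sequences come from RefSeq (GRCh38.p14) and cover the 150 bases before the first listed start, 5′ to 3′ on the strand of the gene, with matches to the NF-kappa B motif in capitals.
CXCL1 (chr4:73869243-73869392, plus strand): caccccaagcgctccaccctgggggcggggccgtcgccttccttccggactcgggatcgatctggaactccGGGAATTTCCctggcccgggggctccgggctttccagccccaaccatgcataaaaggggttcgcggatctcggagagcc
CXCL3 (chr4:74038690-74038839, minus strand): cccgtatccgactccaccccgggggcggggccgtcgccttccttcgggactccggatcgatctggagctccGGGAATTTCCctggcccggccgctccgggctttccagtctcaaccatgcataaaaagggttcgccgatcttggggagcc
IL6 (chr7:22727050-22727199, plus strand): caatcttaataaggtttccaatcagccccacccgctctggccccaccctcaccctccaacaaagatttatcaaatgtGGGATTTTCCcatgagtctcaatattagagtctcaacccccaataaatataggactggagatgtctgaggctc
The motif was searched as GGGA or GGGG, any 1 base and then TTTCC on both strands of the 300 bases from 250 before to 50 after the start. It was present in 282 of 27305 promoters of the table (1.03%) and in 8 of 18 tested NF-kappa B list members with a promoter there (44.4%), 2 of 5 that were higher in S1b and 3 of 6 that were lower. The match in CXCL1 and the match in IL6 thus accompany opposite changes. A match describes the letters only.

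In the NF-kappa B list as a whole, 5 of 21 members tested were higher and 9 lower, with a median log2 change of -0.47. The higher members were CXCL1, BCL2A1, CXCL8, IL1B and CXCL3. Receptors and signal proteins of cytokines gave 6 higher and 11 lower of 33 (3 higher without S1b replicate 2). STAT3, the transcription factor activated by IL6, rose 1.61-fold, from 1312 and 1324 to 2100.2 and 2154 units. IFNGR2, a chain of the interferon gamma receptor, fell 2.52-fold and the interleukin 1 receptor gene IL1R1 at least 5.11-fold. IL13RA2, a receptor for interleukin 13, separated the isolates: it read 9.9 and 3.4 units in the parental arrays, 848 and 936 in S1a and 66.4 and 83.7 in S1b. S1b was at least 1.71-fold above the parental line (adjusted p = 0.000134) and 3.51 below S1a on the log2 scale (adjusted p = 0.00122).

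Interferon-stimulated genes leaned strongly to lower signals. Of 41 tested 25 were lower and 2 higher, with a median log2 change of -0.76 (-0.59 in S1a). IFI27, a mitochondrial protein induced by type I interferon, read 1429 and 1352 units in the parental arrays and 146 and 169 in S1b, a fall of 8.84-fold. IFIT1, which binds foreign RNA, read 1753 and 1944 and 358 and 297 units, a fall of 5.64-fold. BST2, the virus tether, read 1031 and 862 and 109 and 95.2 units, a fall of 9.29-fold. In each of these the parental arrays lay several times above the S1b arrays, with adjusted p-values of 5.22e-07, 6.65e-07 and 9.59e-07. ISG15, a ubiquitin-like protein, read 4565 and 4435 units in the parental arrays, 2096 and 2247 in S1a and 1538 and 1386 in S1b, and was lower in S1b than in S1a as well (log2 change -0.57, adjusted p = 0.0132), a call that ended without either S1a array or S1b replicate 2.

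The promoters of these 4 genes are shown with matches to the interferon-stimulated response element (ISRE) in capitals, again as the 150 bases before the start from RefSeq (GRCh38.p14), 5′ to 3′ on the strand of the gene.
IFIT1 (chr10:89392473-89392622, plus strand): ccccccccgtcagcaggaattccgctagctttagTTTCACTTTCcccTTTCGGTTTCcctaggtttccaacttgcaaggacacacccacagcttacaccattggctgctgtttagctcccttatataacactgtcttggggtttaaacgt
IFI27 (chr14:94110586-94110735, plus strand): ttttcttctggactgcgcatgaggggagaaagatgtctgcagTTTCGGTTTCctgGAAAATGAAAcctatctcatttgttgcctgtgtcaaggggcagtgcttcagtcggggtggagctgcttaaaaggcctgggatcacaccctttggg
ISG15 (chr1:1013347-1013496, plus strand): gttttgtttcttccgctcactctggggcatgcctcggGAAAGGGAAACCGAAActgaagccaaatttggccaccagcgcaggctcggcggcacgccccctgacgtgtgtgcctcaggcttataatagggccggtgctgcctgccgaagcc
BST2 (chr19:17405631-17405780, minus strand): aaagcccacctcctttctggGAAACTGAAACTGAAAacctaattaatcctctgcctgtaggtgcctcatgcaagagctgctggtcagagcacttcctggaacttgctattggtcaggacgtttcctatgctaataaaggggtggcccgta
The motif was searched as 2 copies of GAAA with any 2 bases between them on both strands of the same 300 bases. Each of the 4 promoters holds 2 matches, which overlap in ISG15 and BST2. Of all 27305 promoters 996 (3.65%) held the motif, and so did 196 of the 6504 tested genes that have a promoter there (3.01%). Among interferon-stimulated genes the motif was in 22 of 34 with a promoter (64.7%), and among those lower in S1b in 17 of 22 (77.3%). In antigen presentation it was in 8 of 23 (34.8%).

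Antigen presentation genes had the lowest median of the lists with at least 10 tested members. Of 28 tested 23 were lower and none higher, with a median log2 change of -1.31 (-1.09 in S1a). The count of lower members was 10 when probe sets with shared-probe suffixes were left out. Fewer genes were tested in that setting (4767), so members without a value may account for part of this drop, and it is not a count of lost calls. HLA-B, a class I chain that presents peptides from inside the cell, read 13707 and 17728 units in the parental arrays, 2887 and 2900.2 in S1a and 2607 and 2610.2 in S1b, a fall of 6.03-fold (adjusted p = 3.88e-07). HLA-C fell 4.8-fold, HLA-F 4.81-fold and HLA-G 5.31-fold. The calls of HLA-B, HLA-C, HLA-F and HLA-G were each kept in all 18 alternatives that gave a value. The remaining one of the 19, with shared-probe suffixes left out, gave none for these genes, so their calls could not be checked there. The class I genes are near-identical in sequence and their probe sets can share target RNA, so their separate values are uncertain. HLA-DPA1, a class II chain that presents peptides taken up from outside, fell 10.6-fold, from 417 and 552 to 47.7 and 43.6 units. A further 4 members, chosen after their values were seen, were lower in S1b than in both other populations. They are PSMB8, PSMB9 and PSMB10, the immunoproteasome subunits, and CD74, the class II chaperone. PSMB9 read 1408 and 1496 units in the parental arrays, 842 and 777 in S1a and 489 and 423 in S1b, and CD74 read 1449 and 1371, 597 and 659.6 and 433 and 441.

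Epithelial markers moved more often down than up. Of 37 epithelial markers 19 lay below the filter, and of 18 tested 9 were lower and 2 higher, with a median log2 change of -0.42. KRT7, a simple keratin, read 1906 and 2134 units in the parental arrays and 298 and 278 in S1b, a fall of 7.02-fold. KRT8, another simple keratin, fell 3.51-fold, and DSP, the desmosome plaque protein, 5.81-fold, with adjusted p-values of 9.59e-07 and 7.94e-07. Luminal breast genes gave 7 lower and none higher of 11 tested, and 4 lower when either S1b array was left out. GATA3, the luminal transcription factor, read 611 and 747 units in the parental arrays, 301 and 269 in S1a and 178 and 186 in S1b. CA12, a carbonic anhydrase, fell 2.35-fold and the secretory protein gene AGR2 at least 2.7-fold. KRT18 fell less (log2 change -0.46 ± 0.13, adjusted p = 0.0151), a call that ended without S1b replicate 2.

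Mesenchymal markers moved in both directions. Of 15 mesenchymal markers tested 4 were higher and 6 lower, with a median log2 change of -0.05. CDH11, a mesenchymal cadherin, read 1700.0 and 1595 units in the parental arrays and 327 and 340.0 in S1b, a fall of 4.94-fold. SNAI2, a repressor of epithelial genes, fell 2.47-fold (adjusted p = 1.14e-05). S100A4 and COL5A1 are the other leading members and fell, and SPARC rose. FSCN1, the actin bundler fascin, read 95.2 and 208 units in the parental arrays, 311 and 526 in S1a and 234 and 345 in S1b. Its S1b arrays lay above its parental arrays by a small gap, with a log2 change of 0.99 ± 0.35 (adjusted p = 0.0462). The call ended in 6 of 18 alternatives, among them those without parental replicate 1 or either S1b array, and the adjusted p ranged from 0.0022 to 0.272.

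Of 12 integrin chains tested 4 were lower and 1, ITGB2, was higher, with a median log2 change of -0.08, so the share that passed (41.7%) was near that of all genes. ITGAV, a chain that binds RGD-containing matrix proteins, fell 2.27-fold, its partner ITGB5 2.42-fold and the laminin receptor chain ITGA6 1.76-fold. Of 26 other adhesion molecules 5 were higher and 13 lower, with a median of -0.36. L1CAM, a neural adhesion molecule, read 384 and 557 units in the parental arrays and 90.3 and 92.5 in S1b. GPC1, a cell-surface heparan sulphate proteoglycan, fell at least 8.09-fold, from 336 and 376 to 22.8 and 13.7 units. CD55, which protects cells from complement, read 2475 and 2261 units in the parental arrays, 1649.5 and 1589 in S1a and 937 and 1013 in S1b (log2 change from S1a -0.73, adjusted p = 0.00368). The 5 higher adhesion genes became 2 without either S1b array and 3 without parental replicate 1.

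Guidance genes moved in both directions, with 5 of 22 higher and 8 lower. Beside ROBO1, TENM3, a teneurin that links cells across synapses, went from 8.61 and 6.79 units to 306 and 289, at least 6.76-fold. DPYSL2, a cytoplasmic mediator of semaphorin signals, rose 1.9-fold. PLXNA1, a semaphorin receptor, read 1442 and 1548 units in the parental arrays, 1012 and 1215 in S1a and 612 and 606 in S1b. That call ended when probe sets with shared-probe suffixes were left out.

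In the actin list 9 of 66 members were higher and 27 lower (17 lower without S1b replicate 1, and 5 and 3 higher without S1b replicates 1 and 2). PFN2, a profilin, rose 3.49-fold, from 918 and 844 to 3144 and 2999 units. The other leading members fell: CALD1, caldesmon, 2.38-fold, the myosin light chain MYL9 2.31-fold and the non-muscle myosin heavy chain MYH10 3.09-fold, with adjusted p-values of 1.08e-05, 1.21e-05 and 1.49e-05. Of 16 S100 and annexin genes 10 were lower and 1 higher, with a median log2 change of -0.68. S100A2 read 2595 and 2549.6 units in the parental arrays and 376 and 297 in S1b, a fall of 7.65-fold. ANXA4, a membrane-binding annexin, fell 2.91-fold and S100A10, the partner of annexin A2, 2.15-fold.

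**Figure D4:**
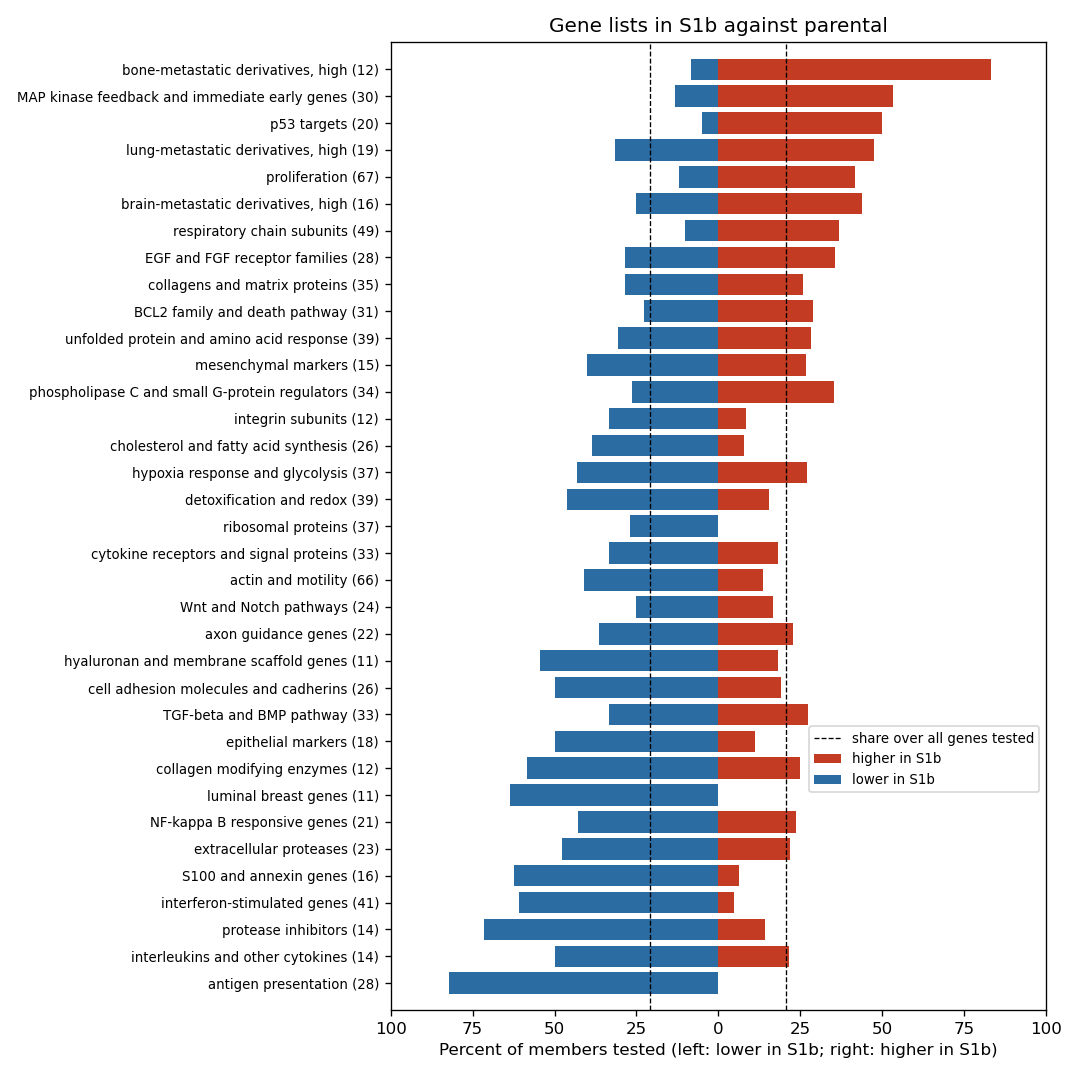
Bars give, for each list with at least 10 tested members (number in brackets), the percentage of its tested members that were lower (blue, left) or higher (red, right) in S1b than in the parental line, in the order of the median log2 change. Dashed lines mark the shares over all genes tested (20.7% higher, 20.9% lower); the bone-metastatic list at the top has 10 of 12 higher and antigen presentation at the bottom has 23 of 28 lower.

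Ligands of the EGF receptor changed in opposite directions. HBEGF, a heparin-binding ligand, read 1653 and 1849.6 units in the parental arrays and 3450.1 and 3899.5 in S1b, a rise of 2.1-fold. TGFA, another ligand of the same receptor, read 1217 and 810.2 and 128 and 145 units, a fall of 7.43-fold. IGFBP3, which binds insulin-like growth factors, rose 3.25-fold, and VEGFA, the angiogenic factor, fell 3.11-fold, from 4007 and 4038 to 1271 and 1315 units. The list of growth factor families had 10 of 28 members higher and 8 lower (5 lower without parental replicate 2 or S1b replicate 2).

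In the list of MAP kinase feedback and immediate early genes, members leaned higher, with 16 of 30 higher and 4 lower and a median log2 change of 0.35. Signalling itself was not measured. DUSP1, a phosphatase that switches MAP kinases off, read 554 and 458 units in the parental arrays, 1972 and 1982 in S1a and 1336 and 1442 in S1b. DUSP4, of the same class, rose 2.03-fold. IER2, an immediate early gene, read 1816 and 1593 units in the parental arrays, 2722 and 2740.3 in S1a and 4076 and 3654 in S1b, so it rose 2.27-fold and was above S1a too (log2 change 0.50, adjusted p = 0.0336), although not when any 1 array of the isolates was left out. DUSP10, which acts on the stress kinases, fell 3.45-fold.

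In the TGF-beta and BMP list 9 of 33 members were higher and 11 lower, and the lower count was 6 to 7 without parental replicate 1 or either S1b array. Beside ENG and CCN2, FST, a secreted trap for activin, read 659 and 789.5 units in the parental arrays, 2509 and 2724 in S1a and 1673 and 1579 in S1b. BMP4, a ligand, fell 4.99-fold (adjusted p = 1.66e-05). In the Wnt and Notch list 4 of 24 were higher and 6 lower, so the share that passed (41.7%) was near that of all genes (41.6%). Among its leading members the frizzled receptor gene FZD2 rose 2.08-fold and FZD7, of the same family, fell 2.68-fold, with adjusted p-values of 7.57e-06 and 7.41e-06. LEF1, a Wnt transcription factor, passed with a log2 change of 1.81 ± 0.31 and NOTCH2, a Notch receptor, with -0.58 ± 0.098, and both calls ended when probe sets were averaged.

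Among phospholipase C and small G-protein regulators 12 of 34 were higher and 9 lower. RGS10, which shortens G-protein signals, rose 2.9-fold, a call that ended when probe sets with shared-probe suffixes were left out. PLCB1 was described above.

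Known targets of p53, which is mutant in this line, leaned higher. Of 20 tested 10 were higher and 1 lower, with a median log2 change of 0.34, and 5 were higher without S1b replicate 2. The sizes were small. BTG1, an anti-proliferative gene, rose 1.57-fold and TP53I3, an oxidoreductase, 1.56-fold, with adjusted p-values of 0.000795 and 0.00392. TNFRSF10B, a TRAIL receptor, and GADD45B, a stress response gene, met the threshold at 1.41-fold and 1.71-fold, but other probe sets of each gave the opposite sign.

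In the death pathway 9 of 31 were higher and 7 lower (4 lower without S1b replicate 2). The ligand TNFSF10 was lost and BCL2A1 gained, as given above. CASP6, an executioner caspase, read 1122 and 1085 units in the parental arrays and 309 and 398 in S1b, a fall of 3.12-fold. CFLAR, an inhibitor of caspase 8 activation, fell 2.16-fold (adjusted p = 2e-05).

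Proliferation genes leaned higher in S1b, with 28 of 67 higher and 8 lower and a median log2 change of 0.18 (0.13 in S1a). PLK1, the mitotic kinase, read 552 and 535 units in the parental arrays, 837 and 905 in S1a and 1058 and 1230.0 in S1b. NDC80, of the kinetochore, rose 1.71-fold, and KIF20A, a kinesin of cytokinesis, 2.05-fold. GINS1, a subunit of the replicative helicase complex, went the other way and fell 1.76-fold, from 1811 and 1816 to 1053 and 1004 units. The lower count was 5 without either S1b array.

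Hypoxia and glycolysis genes did not move as a block, with 10 of 37 higher and 16 lower. ADM, adrenomedullin, read 1572 and 2003 units in the parental arrays and 8118 and 7763 in S1b, a rise of 4.44-fold (adjusted p = 7.16e-07). BNIP3L, a mitophagy receptor, rose 2.39-fold. VEGFA and P4HA2, which hypoxia also induces, fell as given above. Without S1b replicate 1 the counts were 6 higher and 10 lower, and without S1b replicate 2 there were 10 lower.

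Genes of cholesterol and fatty acid synthesis and transport had 2 of 26 members higher and 10 lower, of which 3 were lower than in S1a too. ELOVL6, a fatty acid elongase, fell 2.86-fold, from 1761 and 2037 to 682 and 645 units. EBP, a sterol isomerase, fell 2.8-fold and NPC2, which carries cholesterol out of lysosomes, 2.06-fold. The leading members of the unfolded protein and amino acid response moved in both directions. ATF4 and CEBPB, transcription factors of the stress response, rose 1.86-fold and 1.81-fold. The endoplasmic reticulum chaperones PDIA4 and HSPA5 fell 2.05-fold and 1.81-fold. Over the whole list 11 of 39 were higher and 12 lower (6 lower without S1b replicate 2).

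Detoxification and redox genes leaned lower, with 18 of 39 lower and 6 higher (3 higher without S1b replicate 1). CYP1B1, a cytochrome P450 induced by aryl hydrocarbons, read 9913 and 11598 units in the parental arrays, 1412 and 1376 in S1a and 982 and 1179.8 in S1b, a fall of 9.95-fold (adjusted p = 7.55e-08). The aldo-keto reductase AKR1C3 fell 3.5-fold, the glutathione peroxidase GPX3 3.19-fold and TXNIP, an inhibitor of thioredoxin, 2.75-fold.

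Respiratory chain subunits leaned slightly higher, with 18 of 49 higher and 5 lower (3 lower without S1b replicate 2). NDUFC1 of complex I rose 2.04-fold and UQCRC2 of complex III 1.67-fold. Against the trend NDUFB2 fell 2.52-fold, from 4294 and 4757 to 1894 and 1702 units, and NDUFA8 1.76-fold. Ribosomal protein genes, near the top of the signal range, gave 10 of 37 lower and none higher, but under quantile normalisation 4 were lower and 9 higher, so the family has no settled direction. The lower count ran from 1 without S1b replicate 2 and 5 or 6 without parental replicate 2, either S1a array or S1b replicate 1 to 23 without parental replicate 1. RPS4X read 25424 and 30951 units in the parental arrays and 19610.4 and 19505 in S1b (log2 change -0.52 ± 0.11). RPL34 and RPS15 passed with log2 changes of -0.51 ± 0.11 and -0.48 ± 0.13, calls that ended without S1b replicate 2. RPS19, at -0.44 ± 0.11, lost its call without that array and turned to 0.02 under quantile normalisation.

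Published derivatives of MDA-MB-231 that colonise bone, lung or brain express certain genes highly. Short lists of 15, 22 and 21 such genes, in that order, were read in S1b. Their members were chosen with earlier results of these data known, so the counts are a description. Of 12 bone-derived genes tested 10 were higher and 1 lower, with a median log2 change of 1.31 (1.45 in S1a). The leading members were MMP1, ADAMTS1, SRGN and CCN2. Of 19 lung-derived genes 9 were higher and 6 lower (5 higher without S1b replicate 2), with MMP1, CXCL1 and ROBO1 among the rises and PLAAT4 among the falls. Of 16 brain-derived genes 7 were higher and 4 lower, and MMP1 and COL13A1 rose while PLAAT4 and TNFSF10 fell. The lists share members, MMP1 in all of them, so their counts are not separate observations.

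Genes apart in S1b were not spread evenly over the chromosomes. Chromosome 20 held 223 of the genes tested (2.86%) and 10 of the 66 genes apart and lower (15.2%), which is 4.48% of its tested genes against 0.847% of all. Chosen after their values were seen, the 10 are CST7, CST3, TMEM230, TRIB3, DSTN, MKKS, NSFL1C, NXT1, GINS1 and APMAP. DSTN, the actin-severing protein destrin, read 11883 and 13696 units in the parental arrays, 11170.4 and 10903 in S1a and 6993 and 6963 in S1b, and TMEM230, a membrane protein of vesicles, read 1603 and 1421, 1611 and 1509.7 and 751 and 909.5. TRIB3 and NSFL1C lie before MAVS in gene order and GINS1 directly after PYGB, with log2 changes from S1a of -0.72, -0.52 and -0.50. The short-arm stretch from MAVS to PYGB, with 41 tested genes, holds 7 of the 10, so lower values were not confined to it. This stretch was chosen with these values in view, so its counts are a description and not a test. Its median log2 change was -0.44 from S1a, beside 0.008 over all genes tested. In value 37 of 41 genes lay below S1a, and 11 were past the threshold. Against the parental line its median was -0.20, with 3 genes higher and 13 lower, and the S1a median against the parental line was 0.09. The order of genes is that of GRCh38.p14.

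**Figure D5:**
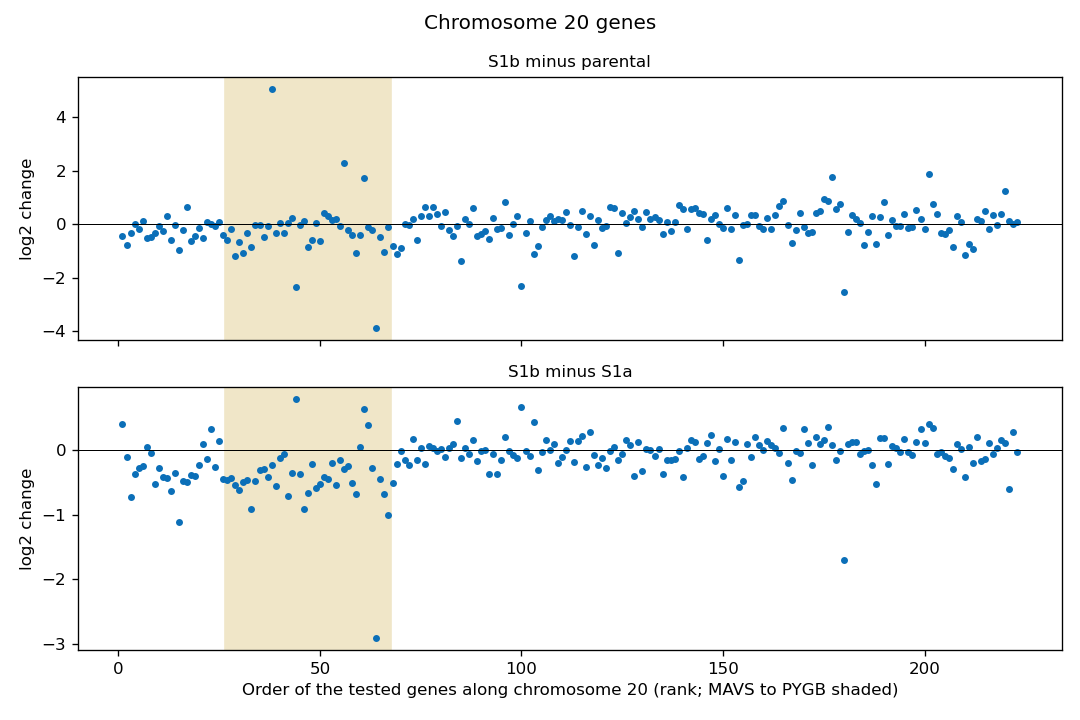
Each point is 1 of the 223 tested genes of chromosome 20 in chromosomal order, with its log2 change of S1b minus parental (top) and S1b minus S1a (bottom) and the stretch from MAVS to PYGB shaded. In the shaded stretch, chosen with these values in view, most points lie below 0 in the lower panel, with a median of -0.44. CST7 is the lowest point there.

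Other stretches are given for both isolates side by side, with 0, 1 and 2 genes below S1a past the threshold in the order below. From NPIPB15 to SLC7A5 on chromosome 16, 26 of 41 tested genes were higher and 2 lower, with a median log2 change of 0.62 in S1b and 0.56 in S1a. From TNS3 to RCC1L on chromosome 7, 23 of 41 were lower and 4 higher, with medians of -0.76 and -0.57. In the class II region from HLA-DRA to HLA-DPB1 on chromosome 6, 11 of 12 were lower and none higher, with medians of -1.83 and -1.51. This region holds members of the antigen presentation list, so its counts and those of that list are not separate observations. These stretches were chosen with results of these data in view and carry no test of their own, and DNA copy number was not analysed here.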

How the data were processed

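Total RNA of 3 populations was measured on 6 arrays, 2 per population. The deposited values are linear signal intensities which the authors made with MAS5 according to the submitters' processing notes, with a version that is not given in the sources used here. In the values themselves every array had a trimmed mean of 500.2. Arrays have no read depth, and their number limits the precision. Detection calls were not used here.

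Of 22277 probe sets 62 controls were left out. A platform annotation gave 1 symbol for 19064, several for 1043 and none for 2108, and 19052 were matched to RefSeq gene identifiers (GRCh38.p14). These covered 11963 genes, 4310 with several probe sets. Probe sets of several genes or none were not tested. Signals were analysed as log2(signal + 3.949), the 10th percentile of all signals, so log2 changes understate those of dim genes. Genes were tested with limma 3.58.1 in R 4.3.3, with 3 group means on all 6 arrays, eBayes with a variance trend (7 prior and 3 residual degrees of freedom) and Benjamini-Hochberg adjustment at 0.05. The procedure was tested on simulated data in which few genes changed and the noise was independent between arrays. These data differ in that 41.6% of the genes passed and the replicates may be technical. That test therefore does not give the error rate of the calls here.

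The 42 gene lists (1343 entries, 126 without a named probe set) and the members were chosen with earlier results of these data known. Named are the 12 largest rises and falls against parental, the 10 largest apart in S1b in each direction, up to 4 members of each list with the smallest p-values, and MMP1, FSCN1, CXCL1, IL6 and CXCL8. Some genes that this rule takes are not reported here. Replicate numbers were checked for pairing. Deviations of arrays with the same number correlated at -0.0046, -0.0675 and -0.0583, so the numbers do not pair the arrays. The 19 alternatives varied pseudocount, filter, normalization, probe sets, variance model, the arrays in the fit, a replicate block and the array left out. Promoter motifs were counted as letters in the RefSeq promoter table.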

Additional observations from a re-analysis of the deposited data

Results flagged for a closer look

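The changes of S1b and of S1a from the parental line differed at 40 of the named genes, by limma's test of S1b minus S1a with Benjamini-Hochberg adjustment below 0.05. Because the parental arrays are the same in both, the difference of the changes equals the log2 change of S1b minus S1a. No cause of these differences was tested. As given in the report, the call was kept under every alternative with a value for ENG, SPARC and CST7. Of these, ENG and SPARC entered the test through their S1b signals.

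S1b exceeded S1a by a fitted log2 change of 6.11 for FGF13, 3.32 for ENG, 3.23 for SPARC, 1.39 for LYPD1, 1.17 for ST3GAL1, 0.92 for SLC5A3, 0.89 for ADIPOR2, 0.88 for MMP1, 0.76 for SRSF10, 0.76 for SRSF11, 0.60 for KIF20A and 0.50 for IER2. S1a lay under 44 units for FGF13 and SPARC, so their fitted sizes depend on the pseudocount.

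Losses against S1a, in no order, had fitted log2 changes of -3.51 for the receptor gene IL13RA2, -2.91 for CST7, -2.19 for CEMIP and -1.85 for ABCA1. The S1b means of CST7, CEMIP, ABCA1 and OLFML2A lay under 44 units, so their sizes also depend on the pseudocount, and the measured fall of CEMIP from S1a was at least 1.9-fold. Lipid and membrane genes were SCD5 at -1.47, STOM at -1.44 and SREBF1 at -1.20. Protease inhibitors, matrix and adhesion genes were TIMP3 at -1.31, ITGB4 at -1.31, OLFML2A at -1.23, PLXNA1 at -0.86, EFEMP1 at -0.83, COL5A1 at -0.82, CD55 at -0.73, P4HA2 at -0.68 and CST3 at -0.67. The calls of PLXNA1 and COL5A1 ended with probe sets averaged and with shared-probe suffixes left out. Over the alternatives their log2 changes came as near to zero as -0.0179 for PLXNA1 and -0.168 for COL5A1. The COL5A1 call ended in 13 of 18 alternatives and that of P4HA2 in 12 of 18. Signal molecules were CSF1 at -1.23, IL1B at -1.19, NMB at -1.16, FST at -0.68 and CXCL8 at -0.46. The rest were S100A4 at -1.03, ANXA4 at -0.62, ISG15 at -0.57, DUSP1 at -0.51, GINS1 at -0.50, KRT8 at -0.46 and DUSP4 at -0.42. For IL13RA2, IL1B, CXCL8, DUSP1, DUSP4 and FST, S1b lay above the parental line and S1a further above it.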

How the results depend on the processing

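Of 165 genes named by rule, 155 passed against the parental line, and 127 of these kept direction and call under every alternative that gave a value. For S1b against parental, the counts were 971 higher and 918 lower with shared-probe suffixes left out, where 4767 genes were tested. Leaving out 1 array gave 1051 to 1612 higher and 1172 to 1539 lower. A block for the replicate number, which does not pair the arrays, gave 1488 and 1496. Counts against S1a, with 36 higher and 111 lower, were less stable. They became 13 and 50 with no filter, 10 and 50 with probe sets averaged, 14 and 44 with suffixes left out, 2 and 2 without a variance trend, 101 and 219 with array weights, and 13 and 51 with the replicate block. Leaving out 1 array gave 3 to 122 higher and 19 to 221 lower. Genes apart in S1b, 27 higher and 66 lower, became 9 and 34, 7 and 34, 11 and 28, 2 and 2, 62 and 132, and 10 and 32 in the same order, and 3 to 78 and 16 to 131 without 1 array. The cause was not tested; a fit with an array left out rests on fewer samples and assumes that the lone array varies like the others. Signs turned for GADD45B (-0.376 against parental) and SRSF11 (-0.0735 against S1a) with suffixes left out, and for RPS19 (0.0172 against parental) under quantile normalization. The other alternatives, with another pseudocount, the 60th percentile filter, median centring, cyclic loess or only parental and S1b arrays, left these counts within 1.5 times where they apply. Of the calls against parental, 49.8% were higher, and 58.8% under median centring.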
